A study of Mus musculus with 7 samples.

Results

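The genes of the NF-kB subunits and of the proteins that hold NF-kB in check were followed in adipocytes with and without the short chain fatty acid receptor FFA2. The members are 10 genes taken by name out of 57010 gene identifiers counted, with earlier results of these data known. All 10 were matched and passed the filter on low counts. They comprise the canonical subunits Nfkb1, Rela and Rel and the non-canonical subunits Nfkb2 and Relb. The other 5, grouped here as inhibitors, are the IkB proteins Nfkbia, Nfkbib, Nfkbie and Nfkbiz together with Tnfaip3 (A20). Nfkbiz is a nuclear coregulator and is counted with the inhibitors only as a member of the IkB family. Mature white adipocytes were freed from perigonadal fat with collagenase and their RNA was sequenced, with 3 libraries from FFA2 fl/fl control mice and 4 from Adipoq-F2-KO mice. Both genotypes were male littermates kept together on standard chow until 20 weeks of age, without any treatment, and both carried floxed FFA2 alleles. In Adipoq-F2-KO mice a Cre recombinase under the adiponectin promoter removes FFA2 from adipocytes, so cells of other types keep the receptor. No group with Cre alone was among the samples, so the transgene and the loss of FFA2 cannot be told apart. The labels do not say whether each library came from 1 mouse, so the p-values measure only the spread between these libraries, which may be technical.

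NF-kB is a family of dimeric transcription factors that resting cells keep in the cytoplasm bound to IkB proteins. In the canonical pathway, receptors for TNF, interleukin-1 and bacterial products activate the IkB kinase complex, IkB is degraded, and dimers of p50 (from Nfkb1) with RelA or c-Rel enter the nucleus. In the non-canonical pathway, a few receptors such as CD40 and the lymphotoxin beta receptor stabilise the kinase NIK, p100 (from Nfkb2) is processed to p52, and p52 pairs with RelB. Several of these genes are themselves NF-kB targets. Induction of Nfkbia, Nfkbie and Tnfaip3 closes negative feedback loops, while newly made Nfkb1, Nfkb2, Rel and Relb enlarge the pool of subunits. In adipose tissue the pathway is best known for driving cytokine and chemokine genes during obesity, both in adipocytes and in macrophages of the fat pad.

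Library totals lay between 30478997 and 39992605 counts. The targeted gene Ffar2 had between 1094 and 1404 counts in the control libraries and between 38 and 76 in the knockout libraries, as labelled. Adipocyte markers dominated every library, with a summed level over 8 genes of 39581 to 44631 CPM (read counts scaled to library size) in FFA2 fl/fl and 29315 to 39293 CPM in Adipoq-F2-KO, and 8 of 8 had a lower mean, with 0 called by edgeR (4 lower at an unadjusted p under 0.05). Over all tested genes, edgeR called 0.798% higher and 0.217% lower, with 10.5% higher and 7.37% lower at an unadjusted p under 0.05. Markers of other cells were present too. A list of 12 macrophage markers summed to between 389 and 445 CPM in controls and between 497 and 551 CPM in knockouts. Of these, 10 were higher, with Cd68 and Lyz2 called, and 2 were lower, Mertk and Cd163, neither called. At an unadjusted p under 0.05, 8 were higher and 1 lower. Mertk had a mean of 93.2 CPM in controls and 69.8 CPM in knockouts (log2 fold change -0.42). Endothelial markers (7 genes, all higher, 0 called, 5 at an unadjusted p under 0.05) summed to between 762 and 1036 against 1032 and 1729 CPM. Fibroblast progenitor markers (7 genes) summed to between 780 and 1074.5 against 1113.5 and 1302 CPM. Of these, 6 were higher and 1 lower, 0 were called, and 3 were higher at an unadjusted p under 0.05. Much of this sum was Col3a1, with means of 535 and 713 CPM. The log2 fold changes of Dpp4, Pi16 and Col1a1 were 0.27, 0.048 and -0.053, and those of Pdgfra, Col3a1, Dcn and Lum were 0.61, 0.41, 0.48 and 0.80. Neutrophil and T cell markers reached at most 4.96 and 7.68 CPM in sum, B cell markers lay between 0.923 and 23.03 CPM, and the neutrophil marker Ly6g was at 0 counts throughout. Erythroid markers (5 genes, all with a higher mean in knockouts, 0 called by edgeR and 2 at an unadjusted p under 0.05) summed to between 99.2 and 221 CPM in controls and between 207 and 359 CPM in knockouts. Germ cell and epididymal transcripts summed to 111 CPM in Adipoq-F2-KO library 2 and to at most 13.1 CPM elsewhere. Genes that tissue dissociation induces (14 genes, such as Fos and Egr1) summed to between 12410 and 14999 CPM in controls and between 12436 and 13931 CPM in knockouts. Mitochondrial genes took 4.41% to 5.77% of the counts in controls and 6.61% to 10.3% in knockouts, without overlap. In bulk libraries, fewer cells of a type and less RNA per cell cannot be told apart.

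Per kilobase of exon, 3 of the inhibitors were the most abundant members in control adipocytes by mean level. Nfkbia (IkB-alpha, the main inhibitor of RelA dimers) stood at 321 ± 83.8 CPM per kilobase (SD, n = 3), followed by Nfkbiz (IkB-zeta, a nuclear coregulator) at 117 ± 23.4, Tnfaip3 at 84.6 ± 31.3 and Rela at 70.9 ± 10.7. Nfkbia lay above the others in every control library, whereas Nfkbiz overlapped with Tnfaip3 and Tnfaip3 with Rela. Nfkbib (IkB-beta) followed at 23.8 ± 2.07 CPM per kilobase. Relb (12.1 ± 2.08) and Nfkb2 (12.0 ± 1.03) overlapped, as did Rel (6.67 ± 1.94) and Nfkb1 (6.15 ± 0.914). Nfkbie (IkB-epsilon) was the least abundant at 2.00 ± 0.555 CPM per kilobase. By this measure, the most abundant subunit, Rela, exceeded Nfkb1 in every control library, at 60.8 to 82.2 against 5.45 to 7.19 CPM per kilobase. The length used counts all exonic bases in the deposited table (12061 for Nfkb1, 3072 for Rela), whichever transcript form the cells make. The order depends on it. By mean CPM in controls, Tnfaip3 (611) and Nfkbiz (589) were above Nfkbia (517). Among the subunits, Rela (218) was followed by Nfkb1 (74.2), Nfkb2 (55.0), Rel (49.8) and Relb (46.9).

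**Figure D1:**
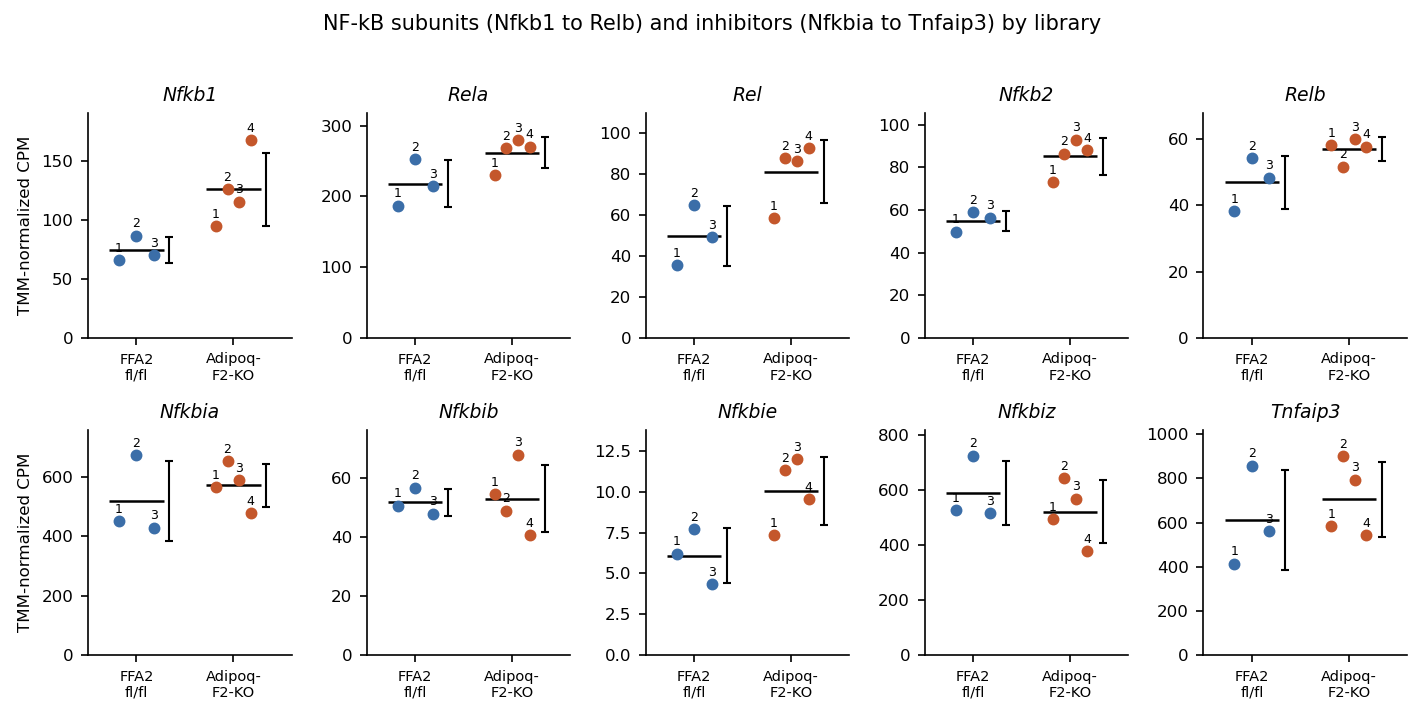
TMM-normalized CPM of the 10 members (vertical axes from 0) in each of 3 FFA2 fl/fl (blue) and 4 Adipoq-F2-KO (orange) libraries, with the library number beside each point, the group mean as a line and the SD as an error bar. Nfkb1 and Nfkb2 are the 2 panels in which the genotypes do not overlap, and FFA2 fl/fl library 2 is the highest control in all 10 panels.

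The first question was whether the subunits differed between genotypes, and Nfkb2 alone passed the test. Values are CPM after TMM normalization, differences are log2 fold changes of knockouts over controls given with their standard error (SE), and "called" means that the quasi-likelihood test of edgeR, corrected by Benjamini-Hochberg over 17039 genes, gave an adjusted p under 0.05. Nfkb2 (ENSMUSG00000025225), which encodes p100 and its product p52, had 49.8, 58.9 and 56.3 CPM in FFA2 fl/fl libraries 1 to 3 and 73.1, 86.3, 93.0 and 87.9 CPM in Adipoq-F2-KO libraries 1 to 4. All 4 knockout libraries lay above all 3 controls. The mean rose from 55.0 ± 4.70 (SD, n = 3) to 85.1 ± 8.47 CPM (SD, n = 4), a difference of 0.63 ± 0.11 (SE) on the log2 scale with an edgeR adjusted p of 0.0332. The exact two-sided permutation test gave p = 0.0286, the smallest that 3 against 4 libraries allow. Nfkb2 was the only member called, at rank 46 of all tested genes by p. The log2 fold change stayed between 0.56 and 0.70 with any 1 library left out. However, the edgeR adjusted p was 0.201, 0.0599 and 0.135 without FFA2 fl/fl library 1, 2 or 3 and 0.0618 and 0.0605 without Adipoq-F2-KO library 2 or 3.

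In the coordinates of the deposited table, Nfkb2 lies on the plus strand of chromosome 19 from 46292759 to 46300824. Of its 4584 exonic bases, 299 also belong to Psd and 642 to the gene model AC114539.1, both on the minus strand. The strand setting of the authors' counting is not given in the sources used here, so reads in the shared bases are uncertain. Psd had 13.3 ± 4.04 (SD, n = 3) and 26.1 ± 6.76 CPM (SD, n = 4), without overlap, and was not called (0.97 ± 0.23, SE, on the log2 scale, edgeR adjusted p = 0.0675). AC114539.1 had 5.78 ± 0.891 (SD, n = 3) and 6.39 ± 0.812 CPM (SD, n = 4). Both lay below Nfkb2 in every library.

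Relb (ENSMUSG00000002983, chromosome 7, 19340142 to 19363363, minus strand), the partner of p52, differed by less. It had 38.2, 54.1 and 48.3 CPM in the control libraries and 58.1, 51.6, 59.9 and 57.6 CPM in the knockout libraries. Adipoq-F2-KO library 2 lay below FFA2 fl/fl library 2, and the other 3 knockout libraries lay above every control. The difference was 0.28 on the log2 scale (SE 0.12, 95% interval 0.012 to 0.54), with an adjusted p of 0.261 from edgeR.

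Among the canonical subunits, Nfkb1 (ENSMUSG00000028163, chromosome 3, 135290416 to 135397308, minus strand), which encodes p105 and its product p50, had the largest log2 fold change among the members in the reported fit of all 7 libraries. Nfkbie (0.73) was above it (0.68) without FFA2 fl/fl library 1, and Rel (0.94) and Nfkbie (0.93) were above it (0.89) without library 2. Nfkbie (0.74), Rel (0.64) and Nfkb2 (0.61) were above it (0.59) without Adipoq-F2-KO library 4, and also with the replicate number as a block. Nfkb1 had 65.7, 86.7 and 70.2 CPM in the control libraries and 94.6, 126, 115 and 168 CPM in the knockout libraries. The genotypes did not overlap, and Adipoq-F2-KO library 4 was the highest. The means were 74.2 ± 11.0 (SD, n = 3) and 126 ± 30.7 CPM (SD, n = 4), which is 0.76 on the log2 scale (SE 0.17, 95% interval 0.38 to 1.14). At an adjusted p of 0.0608 from edgeR it was not called, and the exact permutation test gave p = 0.0571. DESeq2 called it (adjusted p = 5.6e-04), as did edgeR when every gene with at least 1 count was kept (adjusted p = 9.9e-07) or when Adipoq-F2-KO library 1 was left out (adjusted p = 0.0390). With any 1 library left out, its log2 fold change lay between 0.59 and 0.89.

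Rel (ENSMUSG00000020275, chromosome 11, 23686847 to 23720970, minus strand), which encodes c-Rel, the subunit best known from lymphoid cells, followed a similar course. The control libraries had 35.6, 64.6 and 49.2 CPM and the knockout libraries 58.4, 87.6, 86.2 and 92.4 CPM. Adipoq-F2-KO library 1 lay between the controls, and the other 3 lay above all of them. The log2 fold change of 0.70 (SE 0.20, 95% interval 0.27 to 1.14) did not pass the threshold (adjusted p = 0.110 from edgeR, exact permutation p = 0.0857). DESeq2 called Rel (adjusted p = 0.00828), as did edgeR with every gene of at least 1 count kept (adjusted p = 2.0e-05).

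Rela (ENSMUSG00000024927, chromosome 19, 5687511 to 5698158, plus strand), the most abundant subunit and the main transactivating one, had 187, 252 and 214 CPM in controls and 230, 268, 279 and 270 CPM in knockouts. FFA2 fl/fl library 2 was above Adipoq-F2-KO library 1, while the other 3 knockout libraries were above every control. Rela differed by 0.27 on the log2 scale (SE 0.12, 95% interval 0.012 to 0.52, edgeR adjusted p = 0.261). DESeq2 did not call Rela either (adjusted p = 0.173).

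The IkB proteins and A20, among which Nfkbia, Nfkbie and Tnfaip3 close feedback loops of the pathway, were examined next. By edgeR 0 of the 5 were called, against 1.02% of all tested genes, and 1 was higher at an unadjusted p under 0.05 (Nfkbie), against 10.5%. DESeq2 and limma voom called 0 of the 5. With every gene of at least 1 count kept, edgeR called Nfkbie alone. Nfkbia (ENSMUSG00000021025, chromosome 12, 55536195 to 55539432, minus strand) had 452, 673 and 428 CPM in the control libraries and 565, 652, 589 and 479 CPM in the knockout libraries. All 4 knockout libraries lay inside the range of the controls. Its log2 fold change was 0.14 (SE 0.16, edgeR adjusted p = 0.685), and the 95% interval of -0.21 to 0.49 includes both a small decrease and a moderate increase. Without FFA2 fl/fl library 2 the log2 fold change was 0.38 and without library 3 it was 0.034, neither called.

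Tnfaip3 (ENSMUSG00000019850, chromosome 10, 18876658 to 18891405, minus strand), which encodes the ubiquitin-editing enzyme A20 that shuts off signaling at the receptor complex, varied most among the controls. They had 414, 858 and 561 CPM, against 584, 899, 794 and 542 CPM in the knockout libraries. The groups overlapped between 542 and 858 CPM, with 1 control below and 1 knockout library above that stretch. Tnfaip3 differed by 0.21 on the log2 scale (SE 0.23, 95% interval -0.31 to 0.72, edgeR adjusted p = 0.691). Without FFA2 fl/fl library 2 it was 0.53 and without FFA2 fl/fl library 1 it was -0.011, neither called.

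Nfkbiz (ENSMUSG00000035356, chromosome 16, 55631738 to 55659262, minus strand), the atypical IkB that acts in the nucleus and is needed for a subset of late targets such as Il6, was the only member with a lower mean in knockouts. It had 526, 725 and 516 CPM in the control libraries and 493, 644, 568 and 377 CPM in the knockout libraries. Adipoq-F2-KO libraries 1 and 4 lay below every control and the other 2 among them. The log2 fold change was -0.18 (SE 0.17, 95% interval -0.56 to 0.21, edgeR adjusted p = 0.636). Leaving out FFA2 fl/fl library 2 gave -0.0025 and leaving out Adipoq-F2-KO library 2 gave -0.29, neither called.

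Nfkbie (ENSMUSG00000023947, chromosome 17, 45866629 to 45874095, plus strand), an inducible IkB that binds RelA and c-Rel dimers, had the lowest level of the inhibitors. It had 6.19, 7.71 and 4.34 CPM in controls and 7.33, 11.3, 12.0 and 9.53 CPM in knockouts. Adipoq-F2-KO library 1 was below FFA2 fl/fl library 2, and the other 3 were above every control. Nfkbie differed by 0.72 on the log2 scale (SE 0.23, 95% interval 0.22 to 1.22, edgeR adjusted p = 0.143 and 0.0637 from DESeq2). When every gene with at least 1 count was kept, edgeR called it (adjusted p = 0.0181).

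Nfkbib (ENSMUSG00000030595, chromosome 7, 28457676 to 28466937, minus strand), an IkB that is made constitutively, had 50.5, 56.7 and 47.9 CPM in controls and 54.5, 48.9, 67.8 and 40.7 CPM in knockouts. The highest and the lowest value were both from knockout libraries, numbers 3 and 4. Nfkbib differed by 0.035 on the log2 scale (SE 0.15, 95% interval -0.30 to 0.37, edgeR adjusted p = 0.931). Its exons share 314 bases with Ccer2 and 42 with Sirt2, both on the opposite strand.

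**Figure D2:**
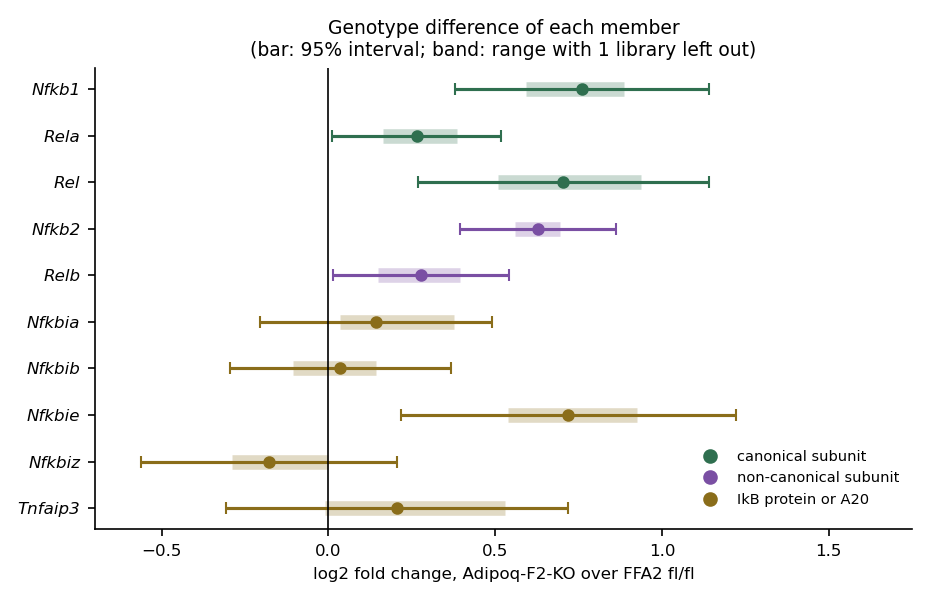
Log2 fold change (horizontal axis) of each member, Adipoq-F2-KO over FFA2 fl/fl, with its 95% interval from edgeR as a bar and the range over 7 fits with 1 library left out as a band. The intervals of all 5 subunits and of Nfkbie lie above 0, from 0.012 at the lowest bound, and those of Nfkbia, Nfkbib, Nfkbiz and Tnfaip3 include 0. These intervals are not adjusted for the number of genes.

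Counted by role, 3 of 3 canonical subunits, 2 of 2 non-canonical subunits and 4 of 5 inhibitors had a log2 fold change above 0, as did 50.4% of all tested genes. The median log2 fold change was 0.70, 0.45 and 0.14 in that order, against 0.0037 over all tested genes. With 1 library left out, the median lay between 0.51 and 0.89 for the canonical subunits and between 0.35 and 0.54 for the non-canonical subunits. That of the inhibitors was 0.018, 0.38 and 0.034 without FFA2 fl/fl library 1, 2 or 3 and 0.079 and 0.22 without Adipoq-F2-KO library 2 or 4. The inhibitors pool the feedback genes Nfkbia (0.14), Tnfaip3 (0.21) and Nfkbie (0.72) with the constitutive Nfkbib (0.035) and the nuclear coregulator Nfkbiz (-0.18). Of the 10 members, 1 was called by edgeR (1.02% of tested genes), higher in knockouts (0.798%). None of the 10 was called lower (0 members against 0.217% of tested genes), with 0 lower at an unadjusted p under 0.05 (7.37%) and 0 by DESeq2 or limma voom. An unadjusted p under 0.05 with a higher level was found for 6 of 10 members (all 5 subunits and Nfkbie) and for 10.5% of tested genes. The members were chosen with earlier results of these data known, so their counts are no independent evidence of a direction. Complete separation of the genotypes was seen for 2 of 10 members (Nfkb1 and Nfkb2), both higher in knockouts, and for 8.86% of tested genes in that direction, while 0 members and 8.72% of tested genes separated in the other. DESeq2 called 3 of 10 members higher (Nfkb1, Nfkb2 and Rel) against 2.36% of the genes it tested, limma voom called Nfkb2 alone (0.974%), and edgeR with every gene of at least 1 count called 4 of 10 (Nfkb1, Nfkb2, Rel and Nfkbie) against 3.76%. Summed macrophage and fibroblast progenitor markers were higher in every knockout library than in any control and summed endothelial markers in 3 of 4 knockout libraries, as given above, and their part in the differences of the NF-kB genes was not tested. The mitochondrial share was also higher in every knockout library than in any control. With mitochondrial genes and the abundant, variable gene ENSMUSG00000119584 left out before normalization, the log2 fold changes of Nfkb2 (0.63) and Nfkb1 (0.76) were as large, and Nfkb2 alone was called (edgeR adjusted p = 0.0327). Leaving those genes out alters mainly the scaling of the libraries, so it cannot test what else differs along with that share. The part of the mitochondrial share in the member differences was not tested. The summed dissociation genes overlapped between the genotypes. Of these 14 genes, 8 were higher and 6 lower, 0 were called by edgeR, and 2 were higher at an unadjusted p under 0.05 (Dusp1 and Nr4a1). Their part in the member differences was not tested either.

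Since several members are themselves NF-kB targets, the sequences upstream of their start sites are shown for the member that was called, for another subunit that DESeq2 called, for 2 inhibitors with intervals that include 0, and for Rela. Promoter windows from RefSeq (build GRCm38.p6, 250 bases before to 50 after a start site) were found for 7 of the 10 members, as 10 windows; Nfkb1, Relb and Nfkbiz had no entry. Both strands were searched for the kB consensus, a motif of 10 letters, and overlapping matches were merged. The consensus was present in 7 of the 10 windows, which belong to 5 of the 7 genes, against 4.51% of all 32851 windows in the table. The downstream windows of Nfkb2 overlap and share a match, so windows of a gene are not independent. The share over all genes was not computed. The windows of Rela and Nfkbib held none. Below, the 130 bases before the start are written 5′ to 3′ on the strand of the gene, with matches in capitals. Their positions are on GRCm38.p6 and cannot be set beside the gene positions given above, which come from the deposited table.
Nfkb2, plus strand, chr19:46304607-46304736: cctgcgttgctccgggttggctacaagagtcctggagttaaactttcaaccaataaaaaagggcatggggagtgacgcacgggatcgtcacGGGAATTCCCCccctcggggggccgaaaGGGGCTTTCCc
Rel, minus strand, chr11:23770970-23771099: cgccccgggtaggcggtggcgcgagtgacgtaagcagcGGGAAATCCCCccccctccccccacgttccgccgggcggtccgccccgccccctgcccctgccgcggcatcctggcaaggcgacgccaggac
Nfkbia, minus strand, chr12:55492648-55492777: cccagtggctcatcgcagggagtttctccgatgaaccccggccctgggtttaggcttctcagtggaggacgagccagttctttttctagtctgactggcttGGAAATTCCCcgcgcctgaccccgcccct
Tnfaip3, minus strand, chr10:19015411-19015540: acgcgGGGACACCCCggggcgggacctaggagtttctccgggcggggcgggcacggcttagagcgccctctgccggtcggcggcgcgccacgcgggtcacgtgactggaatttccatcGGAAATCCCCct
Rela, plus strand, chr19:5637411-5637540: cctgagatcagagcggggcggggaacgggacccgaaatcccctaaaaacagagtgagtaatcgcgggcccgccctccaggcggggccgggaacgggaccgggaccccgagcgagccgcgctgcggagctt

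The matches began 39 and 11 bases before the start in Nfkb2, 92 in Rel, 29 in Nfkbia, and 125 and 12 in Tnfaip3, and that of Nfkbie began 106 bases before its start. Tnfaip3 has another window, from a downstream start site, without a match. Nfkb2 has 2 further windows, from downstream start sites, which share 1 match, GGGACTTTCC. The first of these windows also holds GGAATGTCCC, 236 bases before its start. Matches occurred both in members whose 95% interval lay above 0 (Nfkb2, Rel, Nfkbie) and in members whose interval includes 0 (Nfkbia, Tnfaip3). A match describes letters in this window only and is not a measured binding site.

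The balance between members was described as ratios of normalized CPM within each library, with pairs picked after the levels were seen and therefore without a test. Nfkb1 relative to Rela was 0.352, 0.343 and 0.328 in FFA2 fl/fl libraries 1 to 3 and 0.412, 0.470, 0.413 and 0.621 in Adipoq-F2-KO libraries 1 to 4, without overlap. Nfkb2 relative to Relb averaged 1.19 ± 0.109 (SD, n = 3) and 1.50 ± 0.175 (SD, n = 4), and Adipoq-F2-KO library 1 fell among the controls. The ratio of the 2 precursors to each other, Nfkb2 over Nfkb1, overlapped between the genotypes, at 0.746 ± 0.0620 in controls and 0.697 ± 0.126 in knockouts.

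Among inhibitor ratios, Nfkbia over Nfkb1 was 6.87, 7.76 and 6.10 in controls and 5.97, 5.18, 5.11 and 2.85 in knockouts, so that every knockout library had less IkB-alpha transcript per Nfkb1 transcript than any control. Nfkbia over Rela overlapped between the genotypes (2.36 ± 0.336 and 2.19 ± 0.323). Nfkbiz over Nfkbia was 1.17, 1.08 and 1.21 in controls and 0.873, 0.987, 0.965 and 0.788 in knockouts, without overlap. Tnfaip3 over Nfkbia overlapped (1.17 ± 0.217 and 1.22 ± 0.167). Rel over Rela (0.225 ± 0.0328 and 0.308 ± 0.0383), Relb over Rela (0.215 ± 0.0108 and 0.218 ± 0.0252) and Nfkbie over Nfkbia (0.0118 ± 0.00182 and 0.0176 ± 0.00338) did so too. Of single tested genes, 8.86% separated the genotypes completely with higher and 8.72% with lower levels in knockouts. How often ratios between genes separate was not computed, so these shares are not a background for the ratios.

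**Figure D3:**
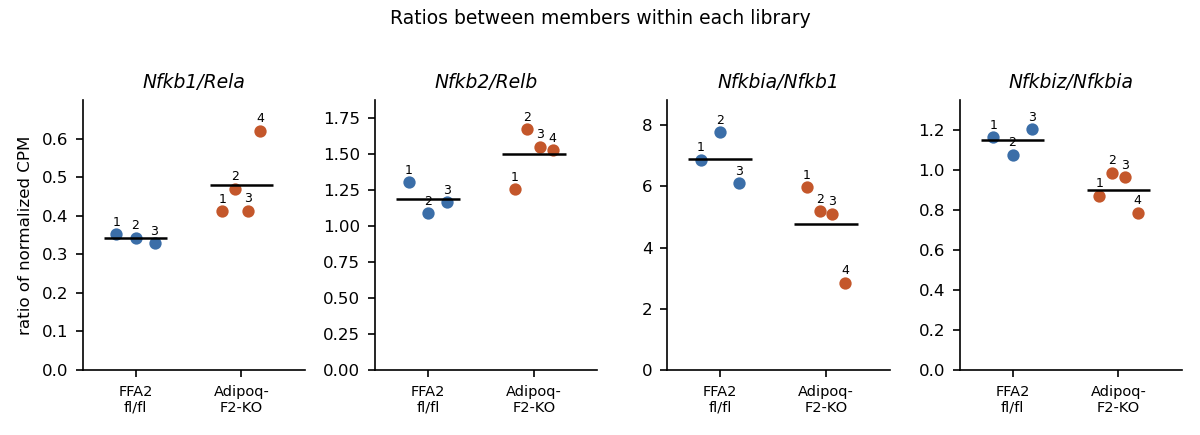
Ratios of normalized CPM between 2 members (vertical axes from 0) in each library, with library numbers beside the points and group means as lines, FFA2 fl/fl in blue and Adipoq-F2-KO in orange. Nfkb1/Rela, Nfkbia/Nfkb1 and Nfkbiz/Nfkbia separate the genotypes, and in Nfkb2/Relb the value of Adipoq-F2-KO library 1 (1.26) lies below that of FFA2 fl/fl library 1 (1.30). The other ratios given in the text overlap between the genotypes and are not shown.

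Within a genotype, the order of the libraries was similar for many members. FFA2 fl/fl library 2 was the highest control for 10 of 10 members, and for 32.4% of all tested genes. FFA2 fl/fl library 1 was the lowest control for 6 members and library 3 for the other 4. Among knockouts, Adipoq-F2-KO library 1 was the lowest for 5 members (Nfkb1, Rela, Rel, Nfkb2 and Nfkbie) and library 4 for 4 (Nfkbia, Nfkbib, Nfkbiz and Tnfaip3), although library 4 was the highest for Nfkb1 and Rel. In library 4 the subunits Nfkb1 and Rel and the inhibitors Nfkbiz and Tnfaip3 thus stood at opposite ends of the knockout group. That library also had the highest summed macrophage (551 CPM) and endothelial (1729 CPM) markers, the highest summed erythroid markers (359 CPM), the highest shares of mitochondrial genes (10.3%) and of ENSMUSG00000119584 (6.76%), and the lowest summed adipocyte markers (29315 CPM). FFA2 fl/fl library 2 had the highest summed dissociation genes (14999 CPM). Its summed B cell markers were 23.03 CPM against 0.923 and 0.955 in the other controls, and its summed T cell markers 7.68 CPM against 2.61 and 3.04. The part of these differences in the member values was not tested.

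**Figure D4:**
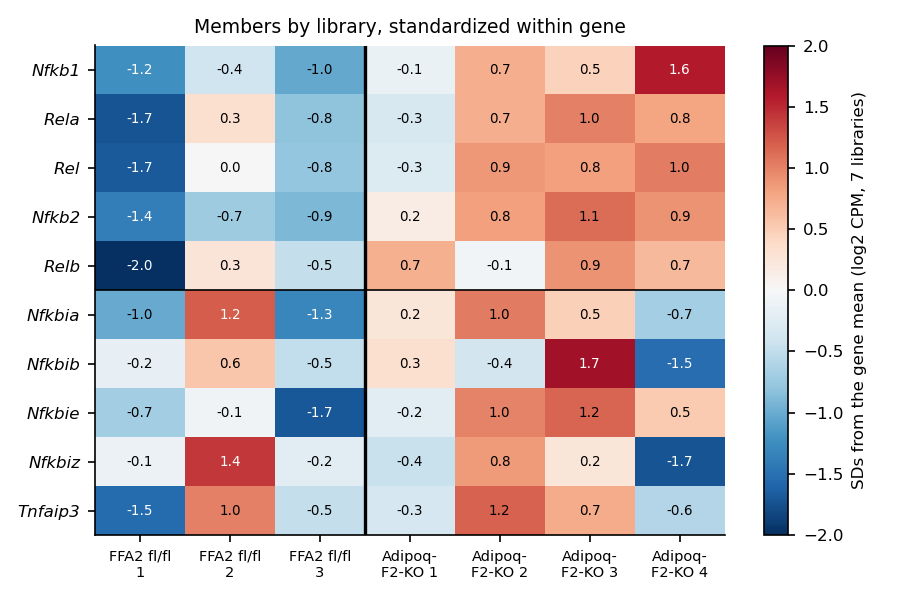
Standardized log2 CPM of each member (rows) in the 7 libraries (columns), as SDs from the mean of the gene over all libraries, with the 3 FFA2 fl/fl libraries to the left of the vertical line and the 5 subunits above the horizontal line. Among the controls the column of FFA2 fl/fl library 2 is highest in all 10 rows, and in Adipoq-F2-KO library 4 the rows of Nfkb1 and Rel are high while those of Nfkbib and Nfkbiz are low.

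By Pearson's r over the 7 libraries, the tested genes of at least 1 CPM that followed the mean of the 10 standardized members most closely were Galnt6 (r = 0.995), Gadd45b (r = 0.983), Gem (r = 0.978), Cxcl1 (r = 0.978) and Rpl9 (r = 0.974). These values include the genotype difference, share library and depth, and are given as a description. Gadd45b and Cxcl1, a stress-response gene and a neutrophil chemokine, also belong to the NF-kB target genes. Neither was called, with log2 fold changes of 0.36 (adjusted p = 0.264) and 0.38 (adjusted p = 0.262) from edgeR.

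The genes around the members were grouped by role, and for each list below the shares over all tested genes were these. By edgeR 0.798% were called higher and 0.217% lower, with 10.5% higher and 7.37% lower at an unadjusted p under 0.05. DESeq2 called 2.36% of the genes it tested higher. Complete separation was seen for 8.86% of tested genes with higher and 8.72% with lower levels in knockouts. Of 3 other IkB-like genes, all had a log2 fold change above 0 and 1 was called, Bcl3, a nuclear partner of p50 and p52 homodimers. Bcl3 rose from 60.5 ± 13.4 (SD, n = 3) to 110 ± 20.7 CPM (SD, n = 4), a difference of 0.87 ± 0.17 (SE) on the log2 scale with an edgeR adjusted p of 0.0446. Nfkbid, another nuclear IkB, had 8.35 ± 1.35 and 14.9 ± 2.87 CPM without overlap between the genotypes and was called by DESeq2 (adjusted p = 0.00275) but not by edgeR (adjusted p = 0.0546). Nfkbil1 had 7.00 and 7.04 CPM. With 1 library left out, Bcl3 was called by edgeR in 2 of 7 fits, those without Adipoq-F2-KO library 1 or 4.

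Upstream, the kinases showed no common direction. Of 16 genes of the IkB kinase complex and its activating kinases, 8 were higher and 8 lower, the median being -0.033 on the log2 scale. By edgeR 0 were called, 4 higher and 3 lower at an unadjusted p under 0.05, and DESeq2 called 2 higher. The catalytic subunits Chuk (IKK-alpha) and Ikbkb (IKK-beta) had log2 fold changes of 0.19 and -0.13, and Map3k14, which encodes NIK, had -0.10 (adjusted p = 0.449, 0.533 and 0.694 from edgeR). The smallest p values were those of Map3k8 (Tpl2, a kinase held inactive by p105), at 0.65 on the log2 scale (adjusted p = 0.0588 by edgeR and 0.00198 by DESeq2), and Tbk1 (log2 fold change 0.34, adjusted p = 0.107 from edgeR). The genotypes did not overlap for either gene.

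Of 9 TRAF and cIAP adaptors, 9 were higher, the median being 0.38 on the log2 scale (0.18 and 0.23 without FFA2 fl/fl library 2 or 3), and 1 was called. This was Birc2, the ubiquitin ligase cIAP1, which rose from 37.0 ± 3.32 (SD, n = 3) to 56.4 ± 6.96 CPM (SD, n = 4), 0.61 on the log2 scale (edgeR adjusted p = 0.0418). Birc3 (cIAP2) had 57.0 ± 17.7 and 96.3 ± 14.5 CPM (log2 fold change 0.76, adjusted p = 0.0791 from edgeR). Birc2 was called in 1 of 7 fits with a library left out, the one without Adipoq-F2-KO library 1.

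Among 13 genes of the linear ubiquitin ligase, deubiquitinases and A20 partners, 9 were higher and 4 lower, the median being 0.086 on the log2 scale. The single call was Tnip3, an A20-binding protein, at 1.30 ± 0.322 CPM (SD, n = 3) in controls and 3.69 ± 0.550 (SD, n = 4) in knockouts, 1.50 on the log2 scale (edgeR adjusted p = 0.0418). Leaving out a library kept this call in 1 of 7 fits, the one without Adipoq-F2-KO library 4. Zc3h12a (Regnase-1), a ribonuclease that degrades cytokine transcripts, had 0.42 on the log2 scale (edgeR adjusted p = 0.184). Cyld and Otulin, which remove ubiquitin chains, had log2 fold changes of 0.028 and -0.27 (adjusted p = 0.925 and 0.320 from edgeR).

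Of 6 receptors of the non-canonical pathway, 4 were higher and 2 lower, the median being 0.28 on the log2 scale. This median was 0.15, 0.45 and 0.43 without FFA2 fl/fl library 1, 2 or 3 and 0.14 and 0.48 without Adipoq-F2-KO library 1 or 3. Tnfrsf12a, the TWEAK receptor, rose from 54.3 ± 3.68 (SD, n = 3) to 77.9 ± 6.54 CPM (SD, n = 4), 0.52 on the log2 scale (edgeR adjusted p = 0.0396), and was called in 2 of 7 fits with a library left out, those without Adipoq-F2-KO library 1 or 4. Ltbr, the lymphotoxin beta receptor, had -0.15 on the log2 scale (edgeR adjusted p = 0.455). Cd40 was barely detected, at 0.641, 0.806 and 0.176 CPM in controls and 0.502, 2.31, 2.71 and 2.71 CPM in knockouts, and was not called (adjusted p = 0.169 from edgeR).

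Finally, 34 genes known as NF-kB targets were described, of which 32 were tested (Ccl20 was at 0 counts throughout and Csf2 at no more than 6). Of these, 30 were higher and 2 lower, the median difference being 0.79 on the log2 scale. By edgeR 11 were called higher and 0 lower, against 0.798% and 0.217% of all tested genes. At an unadjusted p under 0.05, 23 were higher and 0 lower, against 10.5% and 7.37% of all tested genes. The list was chosen with earlier results of these data known and is no independent evidence of its direction. The called genes encode the chemokines Ccl2 and Cxcl16, the cytokines Tnf, Il6 and Csf1, the adhesion molecules Sele and Icam1, the activation marker Cd83, the protease Plau and the acute-phase proteins Lcn2 and Saa3. Tnf, the classical inducer of the canonical pathway, had 12.6, 16.8 and 13.7 CPM in controls and 41.4, 30.8, 44.1 and 63.8 CPM in knockouts, a difference of 1.65 ± 0.22 (SE) on the log2 scale with an edgeR adjusted p of 0.0192. Csf1, the growth factor of macrophages, had 56.9, 63.7 and 69.2 CPM against 108, 175, 143 and 179 CPM, a difference of 1.26 ± 0.16 (SE) on the log2 scale with an edgeR adjusted p of 0.0192. Icam1 had 69.7, 108 and 66.1 CPM against 146, 130, 205 and 247 CPM, a difference of 1.16 ± 0.23 (SE) on the log2 scale with an edgeR adjusted p of 0.0464. For these 3 genes, every knockout library was above every control.

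The other 21 tested targets were not called. Among them, Csf3, a granulocyte growth factor, had the largest log2 fold change of the list (2.04, edgeR adjusted p = 0.0556), at 2.24 ± 2.01 (SD, n = 3) and 9.26 ± 1.11 CPM (SD, n = 4). Il1rn, the interleukin-1 receptor antagonist, had 1.25 and the neutrophil chemokine Cxcl2 had 0.84 (edgeR adjusted p = 0.0776 and 0.0542). The genotypes did not overlap for these 3 genes. Sod2, Ier3 and Irf1, each above 200 CPM, had log2 fold changes of 0.17, 0.20 and 0.19 (adjusted p = 0.441, 0.523 and 0.682 from edgeR), and Bcl2l1, an antiapoptotic gene, had -0.26 (adjusted p = 0.284 from edgeR). The genotypes overlapped for these 4 genes. With FFA2 fl/fl library 1 or 3 left out, 0 of the target genes were called by edgeR, and 2 and 3 without Adipoq-F2-KO library 2 or 3. Over the 7 fits with 1 library left out, Ccl2 and Tnf were called in 5 of 7, Csf1 in 4, Icam1 in 1 and Saa3 in 0. The median log2 fold change of the list lay between 0.69 and 0.92 in the 7 fits.

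**Figure D5:**
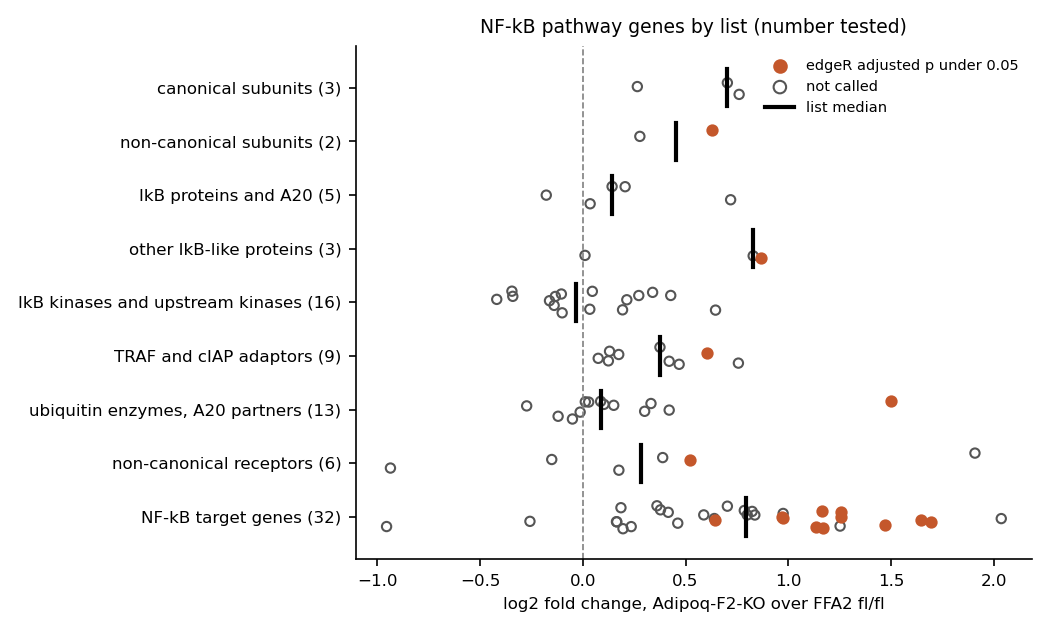
Log2 fold change (horizontal axis, Adipoq-F2-KO over FFA2 fl/fl) of each tested gene in 9 lists of NF-kB pathway genes, with the number tested in parentheses, filled points for genes called by edgeR and vertical bars for list medians. The median is 0.14 for the IkB proteins and A20 (0.018 to 0.38 with 1 library left out), -0.033 for the kinases (-0.059 to -0.0062) and 0.79 for the target genes (0.69 to 0.92). Vertical scatter within a list has no meaning.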

How the data were processed

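Stranded, poly-A selected libraries were read in pairs. The authors' pipeline ran Trimmomatic, STAR and featureCounts, and the deposited table holds raw counts per gene. Counting options are not given in the sources used here. The processing notes name GRCm38 (mm10), yet only 1409 of 52029 shared genes have the positions of GENCODE M21 on that build, so gene positions are printed as the table gives them. Promoter positions are on GRCm38.p6 and cannot be set beside these gene positions. Between 85.5% and 88.8% of counts from 1 to 49 were even.

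Genes passing filterByExpr were TMM-normalized (factors 0.968 to 1.02), and genotype was tested, two-sided, by quasi-likelihood F test (edgeR 4.0.16, R 4.3.3). The SE is the log2 fold change over the square root of F. Exact permutation tests (scipy 1.17.1) compared mean CPM. The study used DESeq2, here (1.42.0) an alternative like limma 3.58.1 voom, other factors and filters, halved counts, abundant genes removed, a replicate block and leaving out each library. Tested on simulated data for this comparison (17039 genes, 200 changed by 1 on the log2 scale), edgeR recovered 59.8% with 4.97% false calls. Replicate libraries differed beyond sampling noise, and all 7 were kept.

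The members and lists were chosen with earlier results of these data known. Named are all members, the called genes and 2 smallest p-values of each list, the 5 genes most like the members, and other list genes chosen after their values were seen.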

Additional observations from a re-analysis of the deposited data

How the results depend on the processing

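Over 16 alternatives for each of the 10 members, the log2 fold change kept its direction and its side of the threshold in 144 of 160 cases, lost the call in 5 (Nfkb2), gained one in 8 and changed sign in 3. The changes of sign were Nfkbib without FFA2 fl/fl library 3 (-0.0037) or Adipoq-F2-KO library 3 (-0.11) and Tnfaip3 without FFA2 fl/fl library 1 (-0.011), uncalled in each. With 1 library left out, Nfkbib lay between -0.11 and 0.14, Tnfaip3 between -0.011 and 0.53, Nfkbia between 0.034 and 0.38 and Nfkbiz between -0.29 and -0.0025. The number of members called, 1 as reported, was 3 with DESeq2, 4 with every gene of at least 1 count, and 0 to 2 with 1 library left out (0 without control 1, 2 or 3 or knockout 2 or 3). The number of all genes called, 173 as reported, was 890 with DESeq2, 1403 with every gene of at least 1 count, 272 with at least 1 CPM in 3 libraries, and 1 to 178 with 1 library left out (1, 41 and 5 without control 1, 2 and 3, and 11 and 20 without knockout 2 and 3). The cause of these differences was not tested.

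The labels do not say whether libraries of the same number belong together. Deviations from the genotype mean correlated at 0.0315, -0.0242 and -0.0203 for same-numbered libraries, and not every library correlated best with its own number. With 3 and 4 libraries, these values cannot settle whether the numbers pair the libraries. With the replicate number as a block, in which Adipoq-F2-KO library 4 has no partner and does not bear on the difference, 3 members were called (Nfkb1, Nfkb2 and Rel) and 224 genes in all. The SE with the block was 0.087 for Nfkb1 and 0.10 for Rel, against 0.17 and 0.20 as reported. The SE of Relb and Nfkbie was larger with the block, and that of the other members smaller.

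A count of 0 corresponds to an upper limit of 0.150 to 0.197 CPM (6 counts, since most low counts were even), for counting error alone. All members lay above it in every library.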
